A study of Mus musculus with 3 samples.

Results

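The genes described here are 52 genes whose transcripts accumulate in G2 and M phase of the cell cycle, out of the 27998 genes of the deposited matrix. They were taken by symbol from a fixed list, and each symbol matched 1 row. No measured value served as the rule for taking them, but the list was chosen with earlier results of these data known. Their transcripts were counted in single nephron progenitors, the mesenchymal cells of the embryonic kidney that either renew themselves or form nephrons. The cells came from Six2GFP+ mouse embryos at E14.5, in which green fluorescent protein marks cells that use the Six2 gene. Each of the 3 tubes held kidneys pooled from more than 1 litter, sorting removed debris, doublets and cells that took up propidium iodide, and the tubes went side by side onto a 10x chip. All 3 samples belong to 1 group, with no treatment and no second genotype, so every comparison below is between cells of the same tubes. A library is named by the suffix of its cell barcodes (1, 2 or 3), which could not be matched to the sample labels. Because each tube pooled several litters, the 3 libraries are not 3 animals, and their spread may be technical.

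The cell cycle runs from DNA copying (S phase) through G2 to mitosis. In mitosis the cyclin-dependent kinase Cdk1 drives chromosome condensation and spindle assembly, and cytokinesis follows after the chromosomes have parted. Many of the genes involved are switched on late in the cycle through promoter elements that bind NF-Y (the CCAAT box) and the MuvB complexes with B-Myb and FoxM1 (the cell cycle genes homology region, TTTGAA and its variants), and their proteins are removed by the anaphase-promoting complex as cells leave mitosis. In the nephron progenitor field, Six2 marks the renewing state, Fgf8 and Wnt4 come up as cells commit to form a nephron, and Lhx1 follows in the early nephron.

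The promoters were examined for these letters because they are what many of the 52 genes are known to share. Of the 52 genes, 46 had an entry among the RefSeq promoter windows of mouse build GRCm38.p6, with 51 windows of 300 bases between them. The letters CCAAT, on either strand, were in 74.5% of these windows and in 37.4% of all 32851 windows. TTTGAA was in 66.7% against 17.9%, TTTAAA in 25.5% against 13.2% and TTCGAA in 9.8% against 1.56%. A CCAAT together with 1 of the other 3 was in 68.6% of the members' windows and 11.3% of all windows. These matches are letters in a window and not measured binding. The windows of Ckap2l, a spindle protein, and Kif11, the motor that pushes spindle poles apart, are shown because these 2 genes had the largest called differences, described below, among members with both a CCAAT and a TTTGAA or TTTAAA. Each is written 5′ to 3′ along its gene (Ckap2l chr2:129297163-129297462, minus strand; Kif11 chr19:37376132-37376431, plus strand), and capitals mark CCAAT and TTTGAA or their reverse complements ATTGG and TTCAAA.
Ckap2l: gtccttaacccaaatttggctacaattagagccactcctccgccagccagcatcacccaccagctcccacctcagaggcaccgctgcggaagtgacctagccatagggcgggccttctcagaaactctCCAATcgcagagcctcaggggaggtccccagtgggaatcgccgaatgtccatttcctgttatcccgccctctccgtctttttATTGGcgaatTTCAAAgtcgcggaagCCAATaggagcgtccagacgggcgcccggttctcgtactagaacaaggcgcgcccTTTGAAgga
Kif11: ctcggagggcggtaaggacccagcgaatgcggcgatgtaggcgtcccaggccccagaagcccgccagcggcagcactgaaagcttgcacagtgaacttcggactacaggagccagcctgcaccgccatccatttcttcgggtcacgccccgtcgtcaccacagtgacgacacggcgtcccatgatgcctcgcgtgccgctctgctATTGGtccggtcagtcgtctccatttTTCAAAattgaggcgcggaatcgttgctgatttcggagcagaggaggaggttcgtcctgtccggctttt
Counted from the gene's start, CCAAT began at bases -122, -40 and -14 of the Ckap2l window and TTTGAA at bases -30 and 42. In the Kif11 window CCAAT began at base -45 and TTTGAA at base -19. In both windows a CCAAT thus lay upstream of a TTTGAA.

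After filtering, 7873 of 7924 barcodes remained, with 3016, 2756 and 2101 cells in libraries 1, 2 and 3. Library 2 was shallower, with a median of 11915 unique molecular identifiers (UMIs, counted transcripts) per cell against 15909.5 and 15792. Libraries 1 and 2 shared 10 cell barcodes, libraries 1 and 3 shared 7 and libraries 2 and 3 shared 5. Scrublet called 0.291% of the cells as doublets, too few for the caller to have worked, so doublets have to be taken as still present. Cells were grouped by raw UMIs: 3840 cells with Six2 and no Fgf8, Wnt4 or Lhx1 (Six2 group), 2514 with Fgf8 and no Wnt4 or Lhx1 (Fgf8 group), 410 with Wnt4 and no Lhx1 (Wnt4 group) and 79 with Lhx1 (Lhx1 group). A further 1030 cells had none of the 4 genes. The labels' cell type was checked on markers that the grouping did not use. The 5 uncommitted progenitor markers other than Six2, summed, were at 1135 ± 231 counts per 1000000 UMIs (CPM) in the Six2 group, 1094 ± 222 in the Fgf8 group and 767 ± 242 in the Wnt4 group (SD, n = 3). In the Lhx1 group they were at 619 ± 211. The 5 early nephron markers other than Lhx1 stood at 2.26 ± 0.414, 2.95 ± 0.945 and 11.4 ± 3.62, and at 180 ± 45.1 in the Lhx1 group. Among committing markers, Pax8 was at 24.2 ± 3.75, 37.8 ± 8.38 and 63.7 ± 9.04 CPM in the Six2, Fgf8 and Wnt4 groups. Tmem100 was at 7.16 ± 0.199, 5.06 ± 0.458 and 29.1 ± 6.94, and Bmper at 30.2 ± 6.05, 20.5 ± 2.78 and 52.6 ± 11.9. Tmem100 and Bmper were thus lower in the Fgf8 group than in the Six2 group. Free RNA or a remaining doublet can place a cell in a group, and these were not told apart. Of 82 cells with immune markers (median 10008.5 UMIs), 13.4% had a Six2 UMI, 6.1% an Fgf8 UMI, 1.22% a Wnt4 UMI and 0% an Lhx1 UMI (0 of 82 allows up to 3.66%), against 80.7%, 34.1%, 5.51% and 1.0% of all cells (median 14554 UMIs).

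A minority of cells carried most of the G2 and M phase transcripts. To compare cells at equal depth, each was thinned to 8000 UMIs, and a cell was called high when its summed UMIs of the 52 genes reached 2 times the library median, that is 42, 44 and 40 UMIs in libraries 1, 2 and 3. High cells made up 33.6%, 31.0% and 30.8% of the cells and held 70.1%, 69.2% and 68.8% of the members' UMIs. The libraries were alike in this respect, and the sums ran up to 220, 227 and 259 UMIs in a cell. The distribution had a narrow peak of low cells and a long tail rather than a gap at the threshold, with 73, 51 and 49 cells within 2 UMIs of it. The high cells had also held more UMIs before thinning, with medians of 20804, 16219.5 and 20737.5 against 15240, 11333 and 14732 in the other cells.

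**Figure D1:**
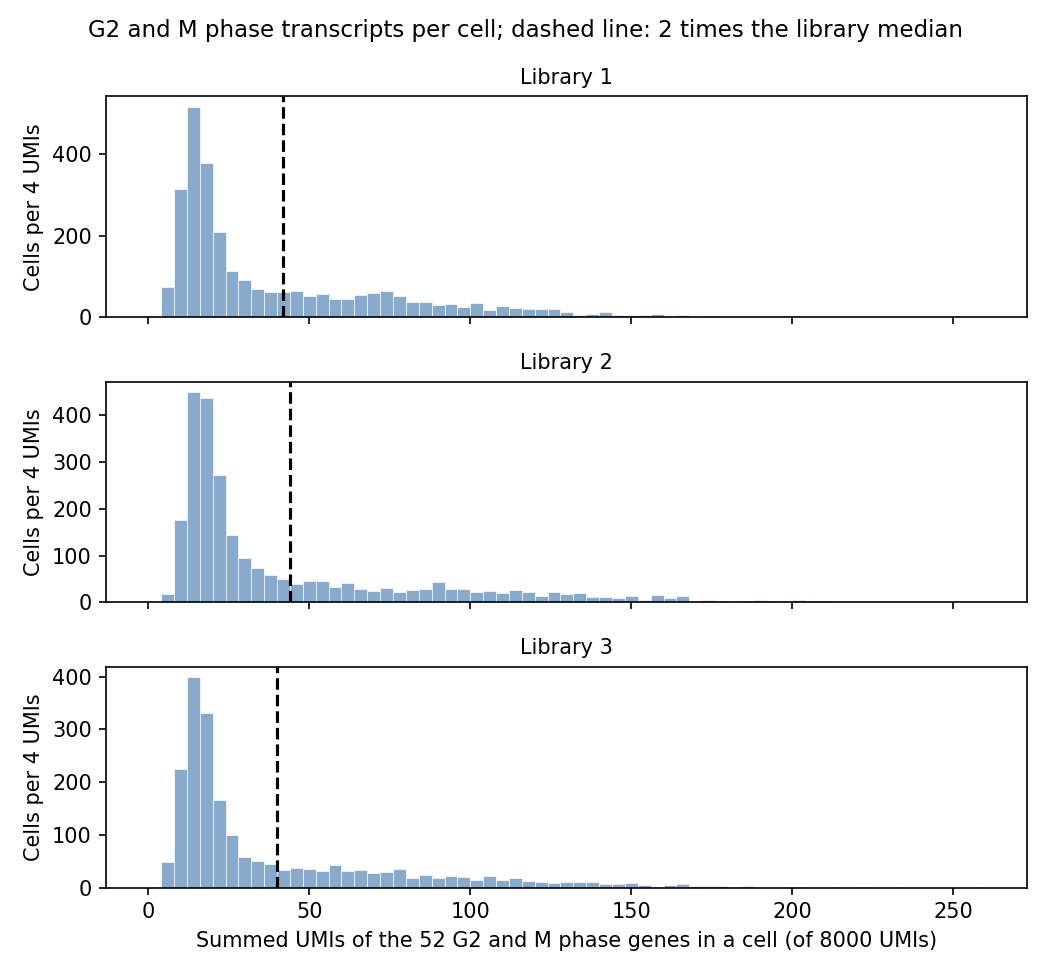
Number of cells (vertical axis) by the summed UMIs of the 52 G2 and M phase genes in a cell thinned to 8000 UMIs (horizontal axis), for each library. The dashed line is the threshold of 2 times the library median (42, 44 and 40 UMIs), and the tail to its right holds 33.6%, 31.0% and 30.8% of the cells.

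High cells were more frequent in the Fgf8 and Wnt4 groups than in the Six2 group in every library. In the Six2 group 29.6%, 26.2% and 28.0% of the cells of libraries 1, 2 and 3 were high (27.9 ± 1.7%, SD, n = 3). The Fgf8 group had 39.6%, 37.5% and 34.1% (37.1 ± 2.78%), and the Wnt4 group 48.7%, 45.0% and 59.3% (51 ± 7.42%). The 3 groups did not overlap, and the exact 95% binomial intervals of the Wnt4 group ran from 35.0% (the lower bound in library 2) to 68.6% (the upper bound in library 3), which cover counting error only. The Lhx1 group, with 28, 31 and 19 thinned cells in libraries 2, 1 and 3, spread from 28.6% (13.2% to 48.7%) in library 2 to 51.6% and 52.6% in libraries 1 and 3, so that it overlapped the Six2 group. Without thinning the shares were 27.5%, 37.1%, 51.1% and 46.8% in the Six2, Fgf8, Wnt4 and Lhx1 groups. Thinning left out 168 Six2 group, 81 Fgf8 group, 9 Wnt4 group and 1 Lhx1 group cells with fewer than 8000 UMIs.

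The levels followed the same order. Summed over the 52 genes, the Six2 group held 5115, 5664 and 5474 CPM in libraries 1, 2 and 3, the Fgf8 group 6245, 7290 and 5770, and the Wnt4 group 6725, 7215 and 7968. All values of the Fgf8 and Wnt4 groups exceeded all values of the Six2 group, and the Fgf8 and Wnt4 groups overlapped. Over the libraries the log2 difference from the Six2 group was 0.243 ± 0.149 for the Fgf8 group and 0.428 ± 0.1 for the Wnt4 group (SD, n = 3), with the smallest value, 0.076, for the Fgf8 group of library 3. The Lhx1 group was at 8609, 5372 and 7612 CPM, and only library 2 fell within the Six2 group's range. A sum over the members was given no p-value.

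**Figure D2:**
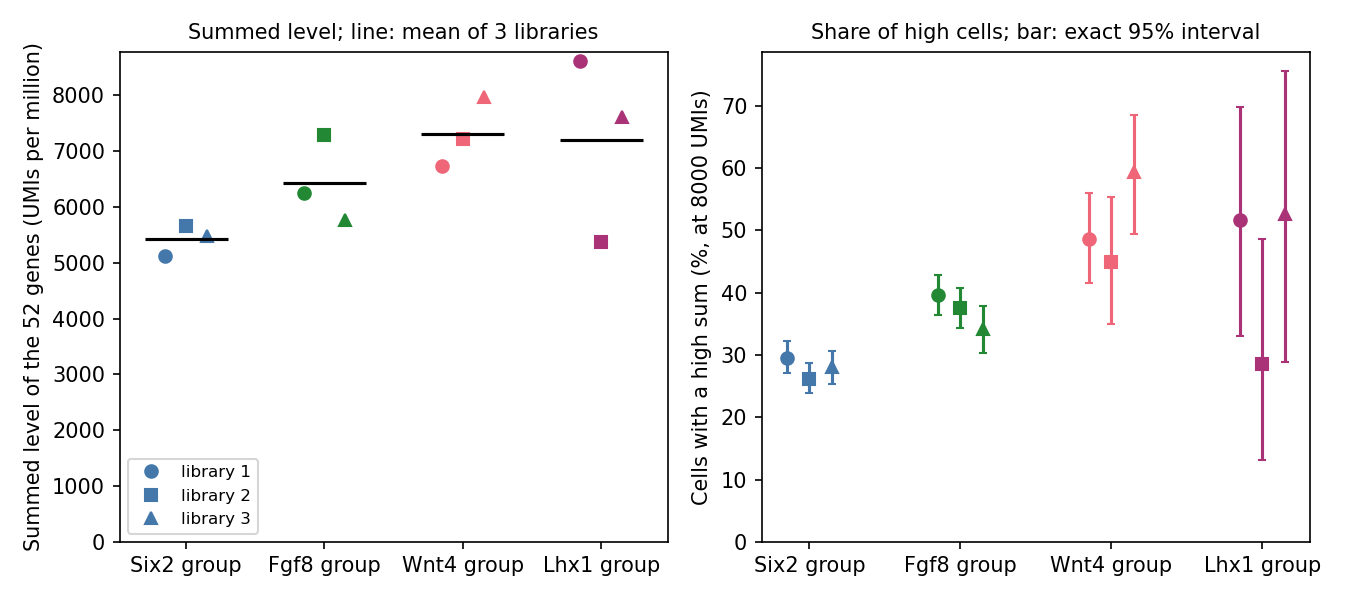
Left, summed level of the 52 genes in CPM for each group and library, with the mean of the 3 libraries as a line. Right, percentage of cells with a high sum at 8000 UMIs, with exact 95% binomial intervals, and the 3 shares of the Wnt4 group (48.7%, 45.0%, 59.3%) stand above the 3 of the Six2 group (29.6%, 26.2%, 28.0%).

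The members' level was higher in cells with more total UMIs, and the groups differed in that total. Cells of the Wnt4 group had median UMIs of 20098, 14039 and 19669.5 in libraries 1, 2 and 3, those of the Fgf8 group 17019, 13224 and 16780, and those of the Six2 group 15576, 11515 and 15332. When the cells of a library were split into 5 equal parts by total UMIs, 42.7%, 36.9% and 41.7% of the Wnt4 group lay in the deepest part, against 26.9%, 30.3% and 27.8% of the Fgf8 group and 15.7% of the Six2 group in each library. Within the Six2 group the summed level went from 2759 ± 447 and 2811 ± 124 CPM in the 2 shallowest parts through 3192 ± 78.9 and 5719 ± 429 to 10564 ± 1034 in the deepest (SD, n = 3). In the deepest part the Fgf8 group stood at 9944 ± 1314 and the Wnt4 group at 9322 ± 786, so that the 3 groups overlapped there. Within each library the Wnt4 group was below the Six2 group in that part, at 8569, 9259 and 10137 against 9409, 11401 and 10883 CPM. The share of high cells in the deepest part was 79.5 ± 2.78%, 74.7 ± 4.42% and 77.7 ± 6.7% in the Six2, Fgf8 and Wnt4 groups.

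Giving each part of the depth range equal weight, a calculation chosen after seeing the data, brought the groups together. The level averaged over the 5 parts was 5009 ± 274 CPM in the Six2 group, 4999 ± 365 in the Fgf8 group and 5152 ± 306 in the Wnt4 group (SD, n = 3). The log2 difference from the Six2 group was 0.128, 0.003 and -0.143 for the Fgf8 group in libraries 1, 2 and 3, and 0.044, 0.058 and 0.019 for the Wnt4 group. The shallow parts of the Wnt4 group were thin, with 13, 14 and 3 cells in the shallowest and 17, 9 and 10 in the next. In the middle part the Wnt4 group stood at 3454, 6338 and 6481 CPM against 3101, 3243 and 3232 in the Six2 group, with 35, 19 and 16 Wnt4 group cells. In the part next to the shallowest the Wnt4 group was lower in each library, at 2550, 2509 and 1894 against 2723, 2756 and 2953 CPM. It was lower in each library in the deepest part too, and in the remaining parts the order differed between libraries. The differences between groups below therefore come with a difference in total UMIs per cell, and they were fitted again in 2 ways. In one, every cell was thinned to 8000 UMIs before grouping. This evens the counted UMIs but not the cells' totals before thinning, and how the groups then differed in those totals is not given here. In the other, only cells of 10000 to 20000 UMIs were used, which narrowed the difference without removing it, since mean UMIs per cell were still 16120, 14442 and 16704 in the Wnt4 group of libraries 1, 2 and 3 against 15195, 13218 and 14799 in the Six2 group.

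**Figure D3:**
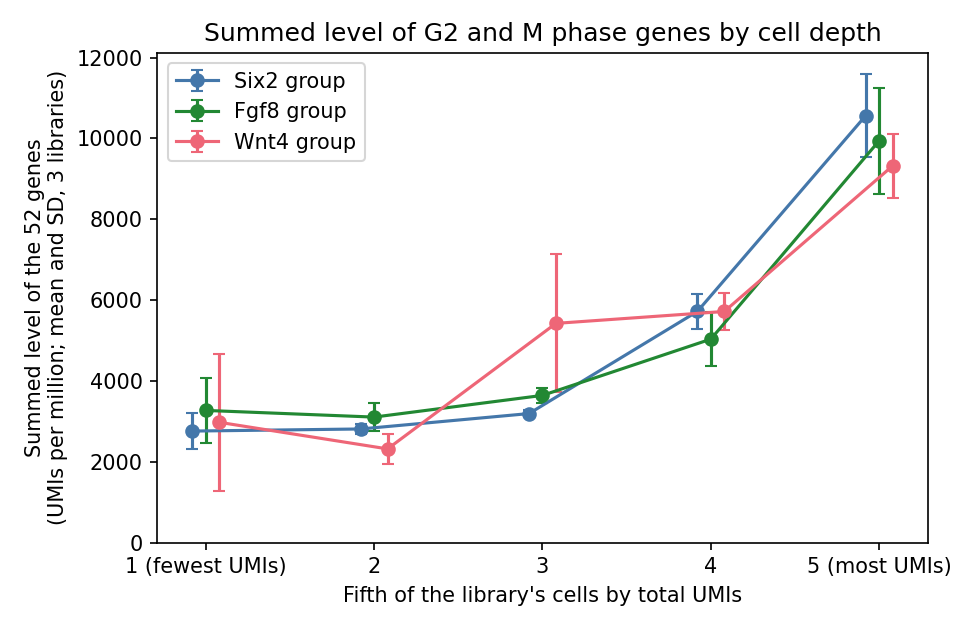
Summed level of the 52 genes in CPM (mean and SD of 3 libraries) in 5 equal parts of each library's cells by total UMIs, for the Six2, Fgf8 and Wnt4 groups. The Six2 group goes from 2759 in the shallowest part to 10564 in the deepest, and the 3 groups overlap in the deepest part.

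Gene by gene, members of every role were higher in the Wnt4 group than in the Six2 group. UMIs were summed per library and group and fitted over 12269 genes with edgeR's quasi-likelihood test, with the library as a block, and a gene was called at a Benjamini-Hochberg adjusted p under 0.05. Log2 changes from this fit are given ± SE. Of the 52 members 42 were called higher and 0 lower, whereas 8.99% of all tested genes were called higher and 8.53% lower (17.5% in all). The median log2 change was 0.47 over the members and -0.02 over all genes. All 52 members passed the filter on low counts. The members are carried by the same cells, so their calls are not 52 separate observations. When every cell was thinned to 8000 UMIs before grouping, 22 members were called, with a median of 0.32. Among cells of 10000 to 20000 UMIs 20 were called, with a median of 0.33. Of all genes, 687 and 762 were called in these 2 fits, in either direction. Of the 42 genes, 17 were also called in both of these fits, namely Hmgb2, Birc5, Tpx2, Cks2, Cks1b, Tmpo, Cenpf, Ccnb2, Ckap2l, Bub1, Anp32e, Tubb4b, Cdca3, Cdc25c, Cdca8, Ect2 and Cenpa. A further 5 were called with thinning only (Cdk1, Ube2c, Top2a, Aurkb and Hmmr) and 2 in the 10000 to 20000 UMI window only (Cdc20 and Rangap1). The other 18, among them Aurka, Nek2, Kif11, Nuf2, Mki67, Anln and Lbr, were called in neither, and the rises given for them below come from the fit over all depths. DESeq2 called 26.

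**Figure D4:**
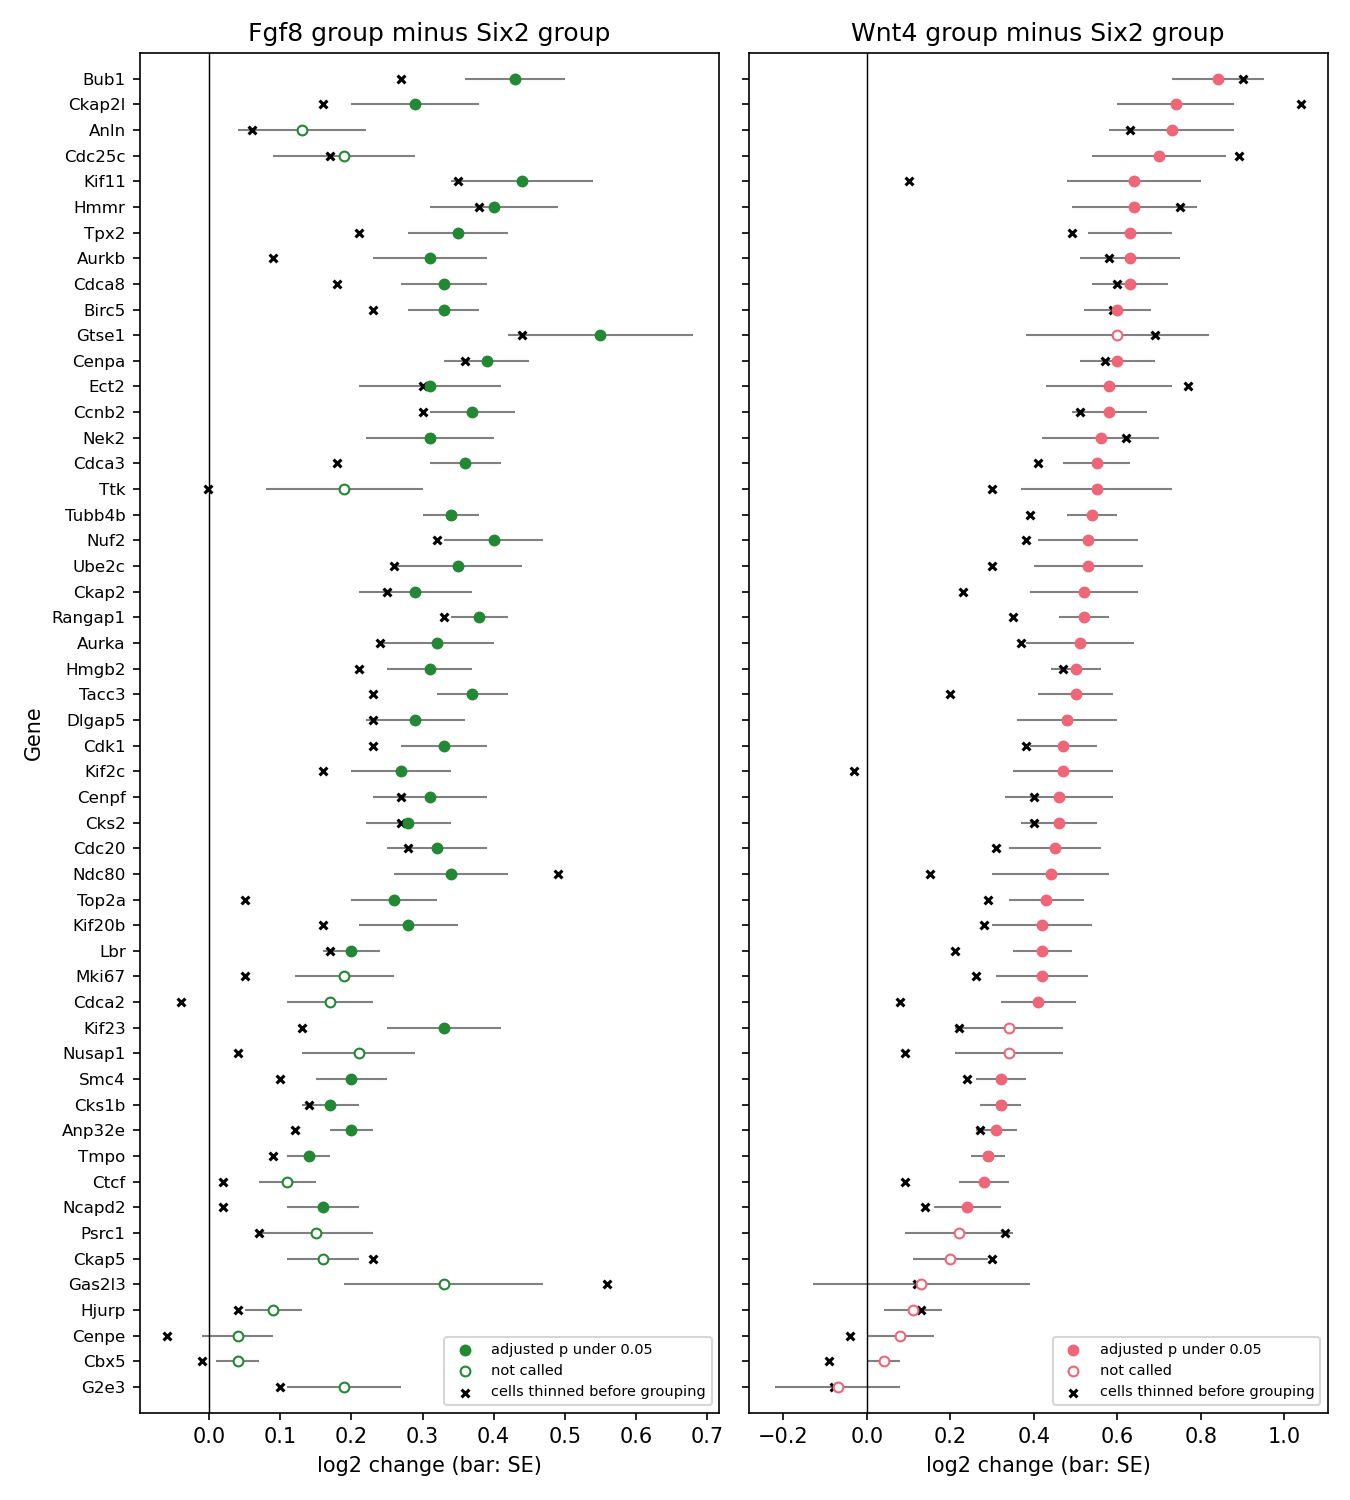
Log2 change of each of the 52 genes in the Fgf8 group (left) and the Wnt4 group (right) against the Six2 group, with SE bars. Filled points were called by edgeR (38 and 42 genes), open points were not, and crosses give the change after thinning every cell to 8000 UMIs before grouping, whose median is 0.20 on the left and 0.32 on the right.

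Among the mitotic kinases, cyclins and their partners all 7 genes rose in the Wnt4 group. Cdc25c, the phosphatase that switches Cdk1 on, was at 13.6, 18.3 and 18 CPM in the Six2 group of libraries 1, 2 and 3 and at 21.8, 33.1 and 28.4 in the Wnt4 group. The groups did not overlap, and the log2 change was 0.70 ± 0.16 (SE, edgeR adjusted p = 0.0018). Cks1b, a small subunit that binds Cdk1, was at 373, 291 and 388 CPM in the Six2 group and 458, 341 and 518 in the Wnt4 group, and its level was higher in each library although the groups overlapped (log2 change 0.32 ± 0.05, edgeR adjusted p = 5.35e-06). Its relative Cks2 was at 225, 90.2 and 222 in the Six2 group and 307, 105 and 330 in the Wnt4 group. Library 2 was low for Cks2 in both groups, so the groups overlapped and the change showed within libraries only (log2 change 0.46 ± 0.09, edgeR adjusted p = 0.000239). Cyclin Ccnb2 rose by 0.58 ± 0.09 on the log2 scale. The kinase Cdk1 itself rose by 0.47 ± 0.08, and by 0.38 with thinning (edgeR adjusted p = 0.017), but in the window its change was 0.11 (edgeR adjusted p = 0.661). The centrosome kinase Aurka rose by 0.51 ± 0.13 over all cells, but its change was 0.37 with thinning (edgeR adjusted p = 0.32) and -0.06 in the window (edgeR adjusted p = 0.923). The centrosome kinase Nek2 rose by 0.56 ± 0.14, and its change was 0.62 with thinning and 0.42 in the window, not called in either (edgeR adjusted p = 0.187 and 0.315).

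Of the 4 genes of ubiquitin-dependent mitotic entry and exit, 3 rose. These were Cdca3 (0.55 ± 0.08), Ube2c, the conjugating enzyme of the anaphase-promoting complex (0.53 ± 0.13), and Cdc20, its activator (0.45 ± 0.11). The change of Ube2c was 0.26 in the window (edgeR adjusted p = 0.0881), and that of Cdc20 was 0.31 with thinning (edgeR adjusted p = 0.0813) and 0.72 in the window (edgeR adjusted p = 4.27e-10). The ligase gene G2e3 had a change of -0.07 ± 0.15 (SE) and was not called.

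At the kinetochore, the structure that ties chromosomes to the spindle, 6 of 8 genes rose. Bub1, a kinase of the spindle checkpoint, had the largest change of the called members. It was at 26.4, 31.4 and 28.5 CPM in the Six2 group of libraries 1, 2 and 3 and at 42.4, 60.9 and 55.4 in the Wnt4 group. The groups were well apart, and the log2 change was 0.84 ± 0.11 (SE, edgeR adjusted p = 4.72e-07), 0.90 with cells thinned before grouping and 0.88 among cells of 10000 to 20000 UMIs. Cenpa, the centromere's own histone H3, was at 114, 136 and 132 CPM in the Six2 group and 164, 214 and 213 in the Wnt4 group, again without overlap (log2 change 0.60 ± 0.09, edgeR adjusted p = 3.69e-06). Hjurp, the chaperone that loads Cenpa, changed by 0.11 ± 0.07 and the kinetochore motor Cenpe by 0.08 ± 0.08, and neither was called. The annotation places Bub1 on the minus strand of chromosome 2 (start 127801122, end 127831865, GRCm38).

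The 3 members that belong to the chromosomal passenger complex, which corrects wrong attachments and then guides cytokinesis, rose together. They are not the whole complex. Aurkb, its kinase, was at 42.9, 60.5 and 49.3 CPM in the Six2 group and 62.1, 79.4 and 93.7 in the Wnt4 group. The lowest Wnt4 value lay just above the highest Six2 value (log2 change 0.63 ± 0.12, edgeR adjusted p = 0.000348), and among cells of 10000 to 20000 UMIs the change was 0.24, which was not called (edgeR adjusted p = 0.463). Birc5, or survivin, was at 149, 163 and 163 CPM in the Six2 group and 214, 242 and 270 in the Wnt4 group, with no overlap (log2 change 0.60 ± 0.08, edgeR adjusted p = 5.64e-07). Cdca8, or borealin, was at 85.9, 96.0 and 88.8 CPM in the Six2 group against 124, 131 and 166 in the Wnt4 group. Its groups did not overlap either (log2 change 0.63 ± 0.09, edgeR adjusted p = 5.9e-06).

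Of 14 spindle motor and microtubule genes 10 rose. Ckap2l was at 20.1, 25.5 and 20 CPM in the Six2 group and at 29.0, 39.7 and 43.8 in the Wnt4 group. All Wnt4 values lay above all Six2 values (log2 change 0.74 ± 0.14, edgeR adjusted p = 0.000217). Kif11 was at 20.5, 26.0 and 19.5 CPM in the Six2 group and at 31.6, 19.8 and 44.7 in the Wnt4 group. In library 2 its Wnt4 group value was the lower one, so the groups overlapped although the gene was called (log2 change 0.64 ± 0.16, edgeR adjusted p = 0.00381). With cells thinned before grouping the Kif11 change was 0.10 (edgeR adjusted p = 0.908), and among cells of 10000 to 20000 UMIs it was -0.14 (edgeR adjusted p = 0.855), so it was called in neither.

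Hmmr, a spindle assembly protein, was at 26.8, 29.5 and 32.3 CPM in the Six2 group and 41.9, 45.0 and 51.1 in the Wnt4 group. Its groups were apart (log2 change 0.64 ± 0.15, edgeR adjusted p = 0.00306), while among cells of 10000 to 20000 UMIs the change was 0.41 (edgeR adjusted p = 0.25). Tpx2, the activator of Aurka on the spindle, was at 58.3, 62.6 and 60.6 CPM in the Six2 group and 80.3, 99.9 and 110 in the Wnt4 group, with no overlap (log2 change 0.63 ± 0.10, edgeR adjusted p = 2.88e-05). The microtubule genes Nusap1 (0.34 ± 0.13), Gtse1 (0.60 ± 0.22), Psrc1 (0.22 ± 0.13) and Ckap5 (0.20 ± 0.09) were not called.

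Of the 4 cytokinesis genes Anln and Ect2 rose and Kif23 and Gas2l3 were not called. Anln, the scaffold of the cleavage furrow, was at 10.7, 13.8 and 11.3 CPM in the Six2 group and 19.0, 21.2 and 18.5 in the Wnt4 group. The groups did not overlap (log2 change 0.73 ± 0.15, edgeR adjusted p = 0.000474), but the change was 0.63 with thinning (edgeR adjusted p = 0.32) and 0.03 among cells of 10000 to 20000 UMIs (edgeR adjusted p = 0.983). Ect2, the exchange factor that activates RhoA at the furrow, was at 16, 20.9 and 17.9 CPM in the Six2 group and 19.7, 39.0 and 29.2 in the Wnt4 group. Library 1 had the smallest difference and made the groups overlap (log2 change 0.58 ± 0.15, edgeR adjusted p = 0.00705).

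Among 9 genes of chromosome structure and chromatin 8 rose. Hmgb2, a chromatin protein that bends DNA, was at 1064, 1143 and 1040 CPM in the Six2 group and 1439, 1484 and 1688 in the Wnt4 group. The groups were apart, and the log2 change was 0.50 ± 0.06 (SE, edgeR adjusted p = 4.66e-07). Anp32e, the chaperone that removes histone H2A.Z, was at 231, 292 and 252 in the Six2 group and 278, 357 and 335 in the Wnt4 group. It was higher in each library with overlapping groups (log2 change 0.31 ± 0.05, edgeR adjusted p = 5.63e-06). Cbx5, the heterochromatin protein HP1α, was at 230, 251 and 235 in the Six2 group and 245, 253 and 233 in the Wnt4 group, so that library 3 had the opposite order. Its change of 0.04 ± 0.04 was not called. The 3 genes of the nuclear envelope and pore all rose, led by Rangap1 (0.52 ± 0.06) and the lamin B receptor Lbr (0.42 ± 0.07). With thinning their changes were 0.35 and 0.21, not called (edgeR adjusted p = 0.0577 and 0.534), and in the window 0.42 and 0.30, of which that of Lbr was not called (edgeR adjusted p = 0.0993). Tmpo, the lamina protein LAP2, was at 311, 382 and 306 against 370, 447 and 401 CPM (log2 change 0.29 ± 0.04, edgeR adjusted p = 4.36e-06). For Tmpo each library was higher in the Wnt4 group, and the groups overlapped.

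Summed by role, the 3 passenger complex members had the largest difference and the nuclear envelope members the smallest. The passenger complex genes held 278, 319 and 301 CPM in the Six2 group of libraries 1, 2 and 3 and 400, 453 and 530 in the Wnt4 group, a mean log2 difference of 0.62. The nuclear envelope genes held 434, 542 and 440 against 547, 652 and 596, a mean difference of 0.34. The other 6 roles lay between, at 0.39 to 0.51, and all 8 roles were higher in the Wnt4 group in each of the 3 libraries. No test was made of a difference between roles.

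Markers of other cell types were low in the Six2, Fgf8 and Wnt4 groups. The 6 immune markers summed to 7.05, 1.61 and 10.9 CPM in the Six2 group of libraries 1, 2 and 3, and to 3.51, 53.6 and 1.29 in the Wnt4 group, with Ptprc at 0 there. The 5 ureteric markers summed to at most 1.41 CPM in the Wnt4 group, with Ret and Wnt9b at 0. The 5 stroma markers summed to 36.2 ± 6.06 CPM in the Six2 group, 32.3 ± 8.26 in the Fgf8 group and 26.5 ± 4.01 in the Wnt4 group (SD, n = 3), and the 4 endothelial and 4 erythroid markers to at most 4.34 CPM in any library of these groups. In the Lhx1 group the ureteric markers summed to 3.96, 227 and 104 CPM in libraries 1, 2 and 3, and the stroma markers to 9.23, 82.9 and 50.6. When cells with ureteric or immune markers were left out, 43 members were called higher in the Wnt4 group and 43 in the Fgf8 group. Without the 6% of cells with the highest doublet scores the counts were 43 and 41.

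Members of every role were also called higher in the Fgf8 group than in the Six2 group in the fit over all depths. Of the 52 genes 38 were called higher and 0 lower, and 5.31% of all tested genes were called higher and 4.75% lower (10.1% in all). The median log2 change was 0.30 over the members and -0.02 over all genes. This comparison shares the Six2 group's sums with the one above, so the 2 are not independent. The count rested on single libraries: without library 1 it was 15, without library 2 it was 25, and without library 3 it was 50. With cells thinned before grouping 22 were called (median 0.20), among cells of 10000 to 20000 UMIs 19 (median 0.21), and of the 38 genes 16 were called in both of these fits, 5 with thinning only, 2 in the window only and 15 in neither. Of all genes, 538 and 590 were called in these 2 fits, in either direction. DESeq2 called 6 members, of 287 genes called in either direction, and gave no adjusted p for 15 of the members.

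The 5 members with the largest called changes in the Fgf8 group were Gtse1, Kif11, Bub1, Hmmr and Nuf2, and none of them was called in both the thinned fit and the window. Gtse1, a microtubule protein of G2, was at 4.88, 6.39 and 4.95 CPM in the Six2 group of libraries 1, 2 and 3 and at 7.72, 8.49 and 7.25 in the Fgf8 group. The groups did not overlap (log2 change 0.55 ± 0.13, edgeR adjusted p = 0.00418), and the change was 0.44 with thinning and 0.22 in the window, not called in either (edgeR adjusted p = 0.351 and 0.721). Kif11 was at 26.2, 39.3 and 24.3 CPM in the Fgf8 group. Against the Six2 values given above it was higher within each library, with overlap between groups (log2 change 0.44 ± 0.10, edgeR adjusted p = 0.00246), and in the window the change was 0.15 (edgeR adjusted p = 0.611). Bub1 was at 36.5, 47.6 and 31.4 in the Fgf8 group, and its lowest value, in library 3, equalled the highest Six2 value to 3 digits (log2 change 0.43 ± 0.07, edgeR adjusted p = 4.6e-05). With thinning the Bub1 change was 0.27 (edgeR adjusted p = 0.0604). Hmmr was at 39.3, 48.3 and 27.8 in the Fgf8 group. In library 3 it was below the Six2 value, so that 2 of 3 libraries were higher (log2 change 0.40 ± 0.09, edgeR adjusted p = 0.00534), and in the window the change was 0.27 (edgeR adjusted p = 0.0999). Nuf2, a subunit of the Ndc80 complex that grips microtubules, was at 21.9, 27.8 and 24.7 in the Six2 group and 30.3, 39.9 and 27.0 in the Fgf8 group, higher in each library with overlapping groups (log2 change 0.40 ± 0.07, edgeR adjusted p = 0.000367). In the window the Nuf2 change was 0.27 as well (edgeR adjusted p = 0.0894).

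By role, all 3 passenger complex genes, all 3 nuclear envelope genes, 6 of 7 kinase and cyclin genes, 11 of 14 spindle genes, 3 of 4 ubiquitin genes, 5 of 8 kinetochore genes, 5 of 9 chromatin genes and 2 of 4 cytokinesis genes were called higher in the Fgf8 group. With thinning 0 of the 4 cytokinesis genes were called. Summed by role, the ubiquitin, kinetochore and cytokinesis genes were lower in the Fgf8 group than in the Six2 group in library 3. They were at 393, 505 and 59.3 CPM against 422, 528 and 63.0. The other roles were higher in each library. Cdc25c (0.19 ± 0.10) and Anln (0.13 ± 0.09), which rose in the Wnt4 group, were not called here, and the difference between the 2 changes was not tested. The proliferation marker Mki67, a protein that coats mitotic chromosomes, had a change of 0.19 ± 0.07 that was not called either (edgeR adjusted p = 0.0739).

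Between the Lhx1 and Wnt4 groups no member was called in either direction in the fit over all depths. The edgeR test called 0 of 52 and DESeq2 called 0, while edgeR called 1.41% of all genes (1.12% higher and 0.285% lower). An unadjusted edgeR p under 0.05 was found for 1 member and for 10.2% of all genes. The median log2 change was 0.0022 over the members and -0.02 over all genes, with fitted changes from -0.75 (Dlgap5) to 0.49 (Gas2l3). The Lhx1 group held only 31, 29 and 19 cells, and the SEs of these 2 changes were 0.29 and 0.53. Library 2 stood apart: its Lhx1 group had 17.2% of its cells in the deepest part by total UMIs, against 51.6% and 57.9% in libraries 1 and 3, and ureteric markers summed to 227 CPM there, against 3.96 and 104. Without library 2, Cdk1 was called higher (log2 change 0.45, edgeR adjusted p = 0.0122). With cells thinned before grouping the members' median log2 change was -0.24, with 13 of 52 above 0 and 0 called. Among cells of 10000 to 20000 UMIs, with 11, 23 and 7 Lhx1 group cells, the median was -0.87, with 2 of 52 above 0. There 8 members were called lower, and these were Hmgb2, Birc5, Top2a, Mki67, Cenpf, Cdc20, Psrc1 and Cenpe, named after their values were seen.

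The members differed in how closely they followed one another from cell to cell. For each gene, cells thinned to 8000 UMIs were divided by whether the other 51 genes were high, and the gene's level was compared between the 2 parts. All 52 genes were higher in the high cells in each library, and the median ratio was 9.27. In 24 genes the ratio exceeded 10, and the largest were Gtse1 (40.4 ± 36.2, SD, n = 3), Hmmr (40.1 ± 5.15), Nusap1 (32.3 ± 10.8) and Kif11 (32.3 ± 10). At the other end, 4 genes had a ratio under 2: Cbx5 (1.32 ± 0.0285), the insulator protein Ctcf (1.55 ± 0.105), Tmpo (1.76 ± 0.058) and Anp32e (1.98 ± 0.0402). Gtse1 varied most between libraries, with 8.55, 32.8 and 79.8, and it was at 0.649 CPM in the cells that were not high. Tmpo, by contrast, was at 456 CPM in high cells and 259 in the others. Leaving Hmgb2, Tubb4b, Cks1b, Anp32e and Tmpo out of the sum changed the shares of high cells little, to 28.4%, 38.1% and 51.9% in the Six2, Fgf8 and Wnt4 groups.

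A second division, by the sum of 42 S phase genes among the cells that were not high in the members gave another order. The median ratio of the S phase high cells to the cells high in neither was 2.22, and 44 genes were above 1 in each library. Top2a, the enzyme that untangles DNA, had a ratio of 8.34 ± 0.847 and the checkpoint kinase Ttk 8.52 ± 3.1 (SD, n = 3). Cdk1 was at 5.59 ± 0.4 and Aurkb at 5.28 ± 1.55, and 12 genes exceeded 5. On the other side, 4 genes were below 1 in each library, which means lower in the S phase high cells of this division: Ccnb2 (0.428, 0.298 and 0.392 in libraries 1, 2 and 3), Psrc1 (0.495, 0.381 and 0.683), Cenpa (0.495, 0.595 and 0.68) and Cdca3 (0.843, 0.663 and 0.754). Ccnb2, Cenpa and Cdca3 rose in both the Fgf8 and the Wnt4 group, and Top2a, Cdk1 and Aurkb did as well in the fit over all depths, so genes of both kinds were among those called there. The ratios depended on leaving out cells high in the members. Over all S phase high cells against all other cells, mean ratios were below 1 for Cdc20 (0.674), Cdc25c (0.599) and Gas2l3 (0.584) as well, and Top2a was at 3.77.

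**Figure D5:**
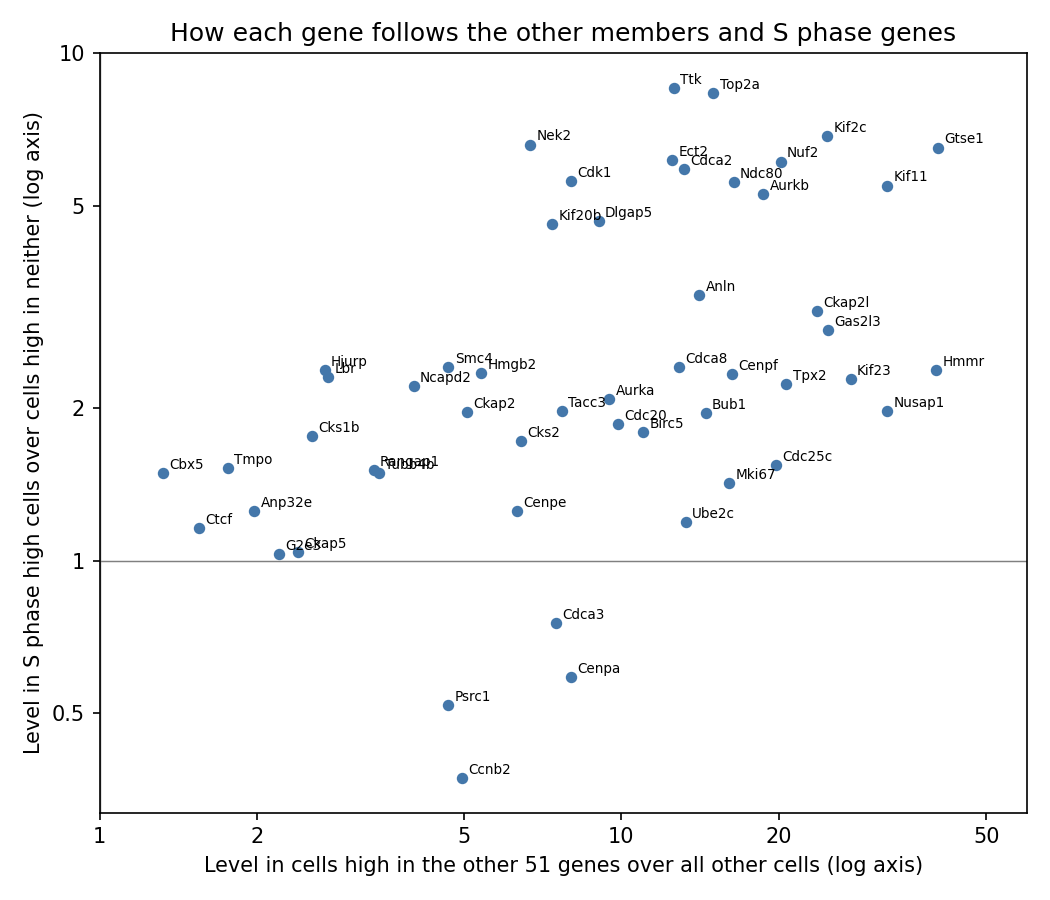
Each point is 1 of the 52 genes, with its level in cells high in the other 51 genes over all other cells (horizontal, log axis) and its level in S phase high cells over cells high in neither (vertical, log axis), as means of 3 library ratios. The vertical axis leaves out cells high in the other 51 genes. Ccnb2, Psrc1, Cenpa and Cdca3 lie below 1 on the vertical axis, and Cbx5, Ctcf, Tmpo and Anp32e lie below 2 on the horizontal axis.

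The members also differed in how they varied with depth. All 52 were higher in the deepest part of a library's cells than in the middle part in each library, with a median ratio of 3.9. The ratio was 12.6 ± 2.36 for Aurkb, 11 ± 0.757 for Top2a and 7.47 ± 0.971 for Cdk1 (SD, n = 3). It was 1.45 ± 0.235 for Ccnb2, 1.88 ± 0.411 for Cenpa and 1.39 ± 0.0904 for Cbx5, and below 2 for 9 genes. In the window of 10000 to 20000 UMIs the Wnt4 group's log2 change was 0.86 for Ccnb2 and 0.81 for Cenpa (edgeR adjusted p = 1.91e-14 and 7.36e-17), but 0.0019 for Top2a, 0.11 for Cdk1 and 0.24 for Aurkb (edgeR adjusted p = 0.996, 0.661 and 0.463). A low depth ratio did not go with a call in every gene: Cbx5, Ctcf (ratio 1.52), Ckap5 (1.71) and Lbr (1.97) were not called there, at -0.04, 0.16, 0.23 and 0.30, whereas Birc5 (4.06) and Tpx2 (3.98) were, at 0.63 and 0.67. In the Fgf8 group the changes in the window were 0.55 for Ccnb2 and 0.52 for Cenpa (edgeR adjusted p = 5.32e-19 and 1.51e-21), against -0.10 for Top2a, 0.06 for Cdk1 and -0.02 for Aurkb (edgeR adjusted p = 0.265, 0.61 and 0.929). These genes were singled out after their values were seen.

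High cells of the members and of the S phase genes were set side by side. Cells high in the members but not in S phase genes made up 15.1 ± 1.46% of the Six2 group, 22.1 ± 3.45% of the Fgf8 group and 32.4 ± 4.15% of the Wnt4 group (SD, n = 3). Cells high in both made up 12.9 ± 0.6%, 14.9 ± 0.808% and 18.6 ± 3.22%, and cells high in S phase genes alone 7.25 ± 1.52%, 8.32 ± 1.43% and 9.87 ± 2.71%. The S phase only shares overlapped between the Six2 and Wnt4 groups, and the share high in neither was 64.8 ± 3.22%, 54.6 ± 2.89% and 39.1 ± 5.85%. These are ranges of a sum and not called phases.

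Genes of mitosis outside the list were called too. Of 80 further mitotic regulators 42 were called higher and 1 lower in the Wnt4 group (median log2 change 0.40), and 35 and 1 in the Fgf8 group (0.21), against the 8.99% and 5.31% of all genes called higher. With thinning 19 and 12 of the 76 tested were called higher, while 687 and 538 of all genes were called in either direction. The largest in the Wnt4 group were Cep55, an abscission protein (0.96 ± 0.15, edgeR adjusted p = 2.45e-05), the spindle motor Kif15 (0.89 ± 0.11, 2e-07), the spindle pole protein Aspm (0.79 ± 0.19, 0.00275) and the checkpoint protein Mad2l1 (0.72 ± 0.08, 1.03e-07). With thinning Kif15 (0.64) and Aspm (0.31) were not called (edgeR adjusted p = 0.0576 and 0.751). Cep55 was at 8.77, 11.3 and 8.56 CPM in the Six2 group and 16.2, 21.2 and 18.9 in the Wnt4 group, without overlap. In the Fgf8 group Kif15 (0.43), Spag5 (0.41), the Polo kinase Plk1 (0.40) and the importin Kpna2 (0.37) were the largest, of which Spag5 (0.30) and Kpna2 (0.21) were not called with thinning (edgeR adjusted p = 0.185 and 0.118). The centromere protein gene Cenpw fell in both, by 0.35 ± 0.05 on the log2 scale in the Wnt4 group and by 0.12 ± 0.03 in the Fgf8 group. Its level varied more between libraries than between groups, with 238, 106 and 163 CPM in the Six2 group. In the Lhx1 group against the Wnt4 group Hn1 was called higher (0.37 ± 0.09) and 0 were called lower, and with thinning the Hn1 change was 0.11 (edgeR adjusted p = 0.944).

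Of the 42 S phase genes, 18 were called higher in the Wnt4 group (median 0.21) and 8 in the Fgf8 group (median 0.06), with 0 called lower in either, against the same 8.99% and 5.31% of all genes called higher. With thinning the counts were 13 and 1, while 687 and 538 of all genes were called in either direction. Those called in the Wnt4 group included the licensing inhibitor Gmnn (0.53 ± 0.07, edgeR adjusted p = 5.72e-07) and the ribonucleotide reductase subunit Rrm2 (0.37 ± 0.06, edgeR adjusted p = 2.39e-05). Those called in the Fgf8 group included E2f8 (0.27), Gmnn (0.20) and Uhrf1 (0.16). With thinning these 3 were at 0.18, 0.16 and 0.11 and were not called (edgeR adjusted p = 0.492, 0.0579 and 0.198).

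Of 18 regulators of G1, 4 were called higher and 1 lower in the Wnt4 group, against 8.99% and 8.53% of all tested genes. Cdkn1c, the kinase inhibitor p57, was at 1671, 2335 and 1872 CPM in the Six2 group and 1010, 1345 and 850 in the Wnt4 group. The groups did not overlap, and Cdkn1c fell by 0.88 ± 0.07 on the log2 scale (edgeR adjusted p = 9.54e-12). Cdkn1a, the inhibitor p21, was at 3.93, 5.31 and 4.78 in the Six2 group and 9.60, 9.92 and 14.2 in the Wnt4 group, with no overlap (log2 change 1.27 ± 0.22, edgeR adjusted p = 6.45e-05). The 2 inhibitors thus went in opposite directions, and did so in the Fgf8 group as well (Cdkn1a 0.98 ± 0.14, and Cdkn1c fell by 0.30 ± 0.06). The D cyclins Ccnd1 (0.47 ± 0.09) and Ccnd2 (0.37 ± 0.05) and E2f4 (0.22 ± 0.06) rose in the Wnt4 group, and Ccne1 (0.14 ± 0.04) in the Fgf8 group. With thinning E2f4 was not called (0.19, edgeR adjusted p = 0.42). From the Wnt4 to the Lhx1 group Ccnd1 rose, from 156, 184 and 163 to 352, 436 and 738 CPM (log2 change 1.51 ± 0.13, edgeR adjusted p = 8.17e-10), while Ccnd2 fell by 0.43 ± 0.09.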

How the data were processed

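The values are raw counts of UMIs per gene and cell, deposited by the authors as a sparse matrix that joins the 3 libraries. Per the submitters' processing notes, Cell Ranger 1.3.1 and mm10 were used, and per the labels' protocols the libraries were made with version 2 of the Chromium single cell kit and read as pairs of 100 bases. How UMIs that match near-identical genes (such as Cks1b, Hmgb2 or Tubb4b and their copies) were counted is not stated in these sources. The library totals after filtering were 50641865, 35193842 and 35406343 UMIs.

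Barcodes with at least 1000 genes, at most 10% mitochondrial UMIs and at most 1% haemoglobin UMIs were kept, and 23 cells called by Scrublet (scanpy 1.11.5, run per library, expected share 3%) were left out. Cells with Lhx1 were placed in the Lhx1 group only, which took 20 cells from the Six2 rule and 22 from the Fgf8 rule. UMIs were summed per library and group and tested with edgeR 4.0.16 (R 4.3.3; TMM scaling, filterByExpr, quasi-likelihood, two-sided) in 1 fit of the 12 sums, with the library as a block because the groups of a library share a tube. The fit was tested on simulated data. With the library as a block, p-values rest on how far the differences between groups varied from tube to tube, not on the spread between tubes. Over 3 libraries of pooled litters this variation may be technical. Levels are CPM, the gene's UMIs per 1000000 UMIs of the group. Thinning drew 8000 UMIs per cell without replacement with a fixed seed. Per-library values were given for the 12 members with the largest called change in the Wnt4 group, the 5 with the largest in the Fgf8 group and the 5 with the highest level, for called members of opposite sign (there were 0), and for further members chosen after their values were seen; of the other lists the 4 largest called genes per direction were named, except that some S phase genes are not reported here.

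The members, the gene lists and the cell groups were chosen with earlier results of these data known. The roles into which the members are sorted were set after the data were seen. Alternatives were DESeq2 1.42.0, other scaling and filters, no block, each library left out, cells of 10000 to 20000 UMIs only, thinning before grouping, stricter doublet, barcode, cell type and grouping rules, other definitions of high, and, added after seeing the data, equal weight for each depth part. Promoter letters and windows came from RefSeq, and gene positions from the GENCODE annotation of GRCm38. Protein sequences of Cks1b and Cks2 were not used here.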

Additional observations from a re-analysis of the deposited data

How the results depend on the processing

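The counts of called members depended on depth, on the tool and on single libraries. With cells thinned before grouping, 22 members were called in the Fgf8 group and 22 in the Wnt4 group, with 538 and 687 genes in all (52 for Lhx1 against Wnt4). Among cells of 10000 to 20000 UMIs the members called were 19 and 20, of 590 and 762 genes, and for Lhx1 against Wnt4 8 were called lower, of 73 genes. There the Kif11 change in the Wnt4 group turned to -0.14 and that of Cbx5, never called, to -0.04 (-0.09 with thinning). DESeq2 called 6 and 26 members, of 287 genes for the Fgf8 group and 1445 for the Wnt4 group. With no filter on low counts 312 genes were called for Lhx1 against Wnt4.

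The replicate numbers are the libraries, which pair cell groups of 1 tube by construction. Without the library block 0 and 3 members were called (1, 259 and 96 genes for the 3 comparisons). The 3 were Bub1, Tubb4b and Anln.

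Leaving out 1 library gave 15 to 50 called members for the Fgf8 group (339 to 1004 genes), 31 to 44 for the Wnt4 group (1011 genes without library 1, 1238 without library 3, 2058 without library 2) and 0 to 1 for Lhx1 against Wnt4 (54 to 255 genes). The cause of these changes was not tested.

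Summed levels in the Six2, Fgf8, Wnt4 and Lhx1 groups were 4307, 4789, 5555 and 3911 CPM among cells of 10000 to 20000 UMIs. With thinning before grouping they were 4868, 5427 and 6281 in the first 3 groups, and with equal weight per depth part, added after seeing the data, 5009, 4999 and 5152. With grouping genes at 2 UMIs or more, the Six2 and Lhx1 groups were at 5806 and 9141. The shares of high cells in the same group order were 22.5%, 28.4%, 40.3% and 26.0% among cells of 10000 to 20000 UMIs, and 29.8%, 40.7%, 60.3% and 74.7% with grouping genes at 2 UMIs or more. With high set at 10 member UMIs per 1000 they were 13.8%, 19.8%, 25.3% and 21.3%. Set at 3 times the median, the first 3 groups had 19.7%, 26.8% and 37.5%, and at 1.5 times 32.8%, 44.8% and 60.7%. Under each of these settings the share of the Wnt4 group exceeded that of the Six2 group. Other scaling, barcode, doublet and cell type rules left all 22 named member results on the same side of the threshold. The Lhx1 group held 79 cells, which limits its precision.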

Other observations

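The 1030 cells with no UMI of Six2, Fgf8, Wnt4 or Lhx1 belonged to no comparison. Their summed level of the G2 and M phase genes was 4204, 5092 and 3676 CPM in libraries 1, 2 and 3. At 8000 UMIs 22.7%, 27.8% and 17.7% of them were high, with 189 shallower cells left out. Uncommitted progenitor markers summed to 880, 1214 and 936 CPM there and immune markers to 516, 711 and 1144, so these cells were mixed.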
